A study of Mus musculus with 30 samples.

Results

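The genes described here are 9 adipokine genes and adipokine receptor genes: the ligands Adipoq, Lep, Retn, Retnla, Cfd and Fam132a and the receptors Adipor1, Adipor2 and Lepr. They were chosen by name, as every probe that the hypothalamus array files assign to 1 of these symbols, which gave 16 probes of 41174 and 9 of 28146 distinct gene names on the array. Fam132a is the array's name for the gene now called C1qtnf12. Expression was measured in 2 tissues of adult male mice on the C57Bl/6J background, either Per3-/-, with a knockout of the clock gene Period3, or wild-type (WT) litter mates of these. All mice were first kept in LD 12:12 and then in an ultradian light regime of 3.5 h of light and 3.5 h of darkness, and tissue was collected in the light of cycle 17. The hypothalamic block, a piece of ventral brain around the optic chiasm that includes the suprachiasmatic nucleus, was measured in 8 WT and 8 Per3-/- mice, and the whole eye in 7 mice of each genotype. The eyes of WT mouse 2 and Per3-/- mouse 1 were not analysed here. Each array held the RNA of 1 tissue of 1 mouse, and arrays of the same genotype and number were taken to come from the same mouse in both tissues, which the labels do not state outright.

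Adipokines are proteins that fat cells release into the blood. Adiponectin, the product of Adipoq, signals through the receptors encoded by Adipor1 and Adipor2 to the energy sensor AMPK, and leptin, the product of Lep, signals through the receptor encoded by Lepr to JAK2 and STAT3 and acts on neurons of the hypothalamus that control feeding. Adipsin, the product of Cfd, is complement factor D, the protease that starts the alternative complement pathway. Resistin (Retn) and its relative Retnla are small secreted proteins, the first made by mouse fat cells and the second by macrophages and several epithelia as well, and Fam132a encodes adipolin, a secreted member of the C1q/TNF family to which adiponectin also belongs.

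The probes are 60 bases long, and 5 of them are printed here because the results below turn on what they bind. The Adipoq probe lies on the plus strand at mm9 chr16:23157576-23157635.
Adipoq: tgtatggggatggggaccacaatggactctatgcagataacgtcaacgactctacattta
The Retn probes were A_52_P55972, whose bases fall in chr8:3656107-3656928, and A_51_P233597, in chr8:3656145-3656966, both on the plus strand. Each span is 822 bases for 60 bases of probe, so both cross an intron, and the 22 bases that they share are in capitals. They are overlapping readings of 1 transcript and not independent ones.
Retn A_52_P55972: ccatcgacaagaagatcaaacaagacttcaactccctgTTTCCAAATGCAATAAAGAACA
Retn A_51_P233597: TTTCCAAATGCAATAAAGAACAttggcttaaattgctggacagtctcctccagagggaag
The Lepr probe A_51_P396045 lies on the plus strand in chr4:101461940-101463441, a span of 1502 bases that also crosses an intron, and the array's annotation lists it for 2 RefSeq transcripts of Lepr. The other Lepr probe, A_52_P247900, lies further along the gene at chr4:101485484-101485543 and is annotated to transcript variant 3. The first 30 bases of the latter are shown.
Lepr A_51_P396045: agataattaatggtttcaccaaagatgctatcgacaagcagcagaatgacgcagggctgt
Lepr A_52_P247900: agagagcaatgacttattccataattaatg

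The other probes lie on the plus strand at chr10:79355302-79355361 for Cfd, chr4:155340584-155340643 for Fam132a and chr6:29023234-29023293 for Lep. The 2 Retnla probes, at chr16:48844437-48844496 and chr16:48844447-48844506, share 50 bases. Adipor1 has probes at chr1:136321459-136322504, chr1:136328635-136328694 and chr1:136329625-136329684, and Adipor2 has probes on the minus strand of chromosome 6 at chr6:119303222-119303281, chr6:119308716-119308775 and chr6:119309501-119311850. The second Adipor2 probe, A_51_P257151, is annotated to a cDNA clone and was well above background on 1 of 16 hypothalamic and 1 of 14 eye arrays.

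Levels are log2 intensities relative to the 75th percentile of the same array, so that 0 is a signal as bright as that percentile and each unit is a doubling. They set 1 probe against itself between samples and not against another probe. A spot was called well above background where the scanner software marked it so, which held for 67.94% to 75.64% of the probes on the hypothalamic arrays and for 71.43% to 80.74% on the eye arrays. The 4 ocular surface markers, such as the corneal keratin gene Krt12, summed to at least 392 times the 75th percentile in every eye and to at most 0.449 times in every block, and the 7 hypothalamic markers summed to 134 to 183 times in the blocks and to at most 0.398 times in the eyes. Per3 itself was read by 1 probe, whose position relative to the deleted part is not given in the sources used here. It was 0.51 lower in the Per3-/- hypothalamus (SE 0.09, exact permutation p = 0.00031, limma adjusted p = 0.068) and 0.45 lower in the Per3-/- eye (SE 0.24, exact permutation p = 0.089). The hypothalamic block of Per3-/- mouse 1 stood apart in its anterior pituitary markers, whose summed signal was 776 times the 75th percentile against a median of 0.985 in its group, and that of WT mouse 5 reached 40.4 against a median of 1.43.

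Of the ligand genes of fat cells, Adipoq and Cfd were bright in the eye and at or near background in the hypothalamus. Adipoq ranged in the eye from -1.61 through a median of 0.75 to 2.20 in WT mice and from -1.74 through 1.33 to 2.55 in Per3-/- mice, and it was well above background in all 14 eyes. In the hypothalamus it ranged from -7.33 through -6.88 to -5.82 in WT and from -8.00 through -7.45 to -7.08 in Per3-/- mice, and 1 of the 16 blocks was well above background. Every eye was therefore brighter than every block, and the eyes of 1 genotype spread over 3.81 (WT) and 4.29 (Per3-/-) log2 units. The eye minus hypothalamus difference was 7.45 (SE 0.50, limma adjusted p = 1.6e-14) in WT and 8.68 (SE 0.50, limma adjusted p = 4.2e-16) in Per3-/- mice, the latter at least 221-fold because no Per3-/- block was well above background. In these tissue pieces fewer cells of a type and less RNA per cell cannot be told apart. The eye arrays were scanned in 1 run and the hypothalamic arrays in another on other slides, so tissue and scan run cannot be told apart either.

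Cfd, the gene of adipsin, was also bright in the eye and at background in nearly all blocks. It ranged in the eye from 1.90 through 4.37 to 5.23 in WT and from 1.57 through 4.72 to 6.01 in Per3-/- mice. In the hypothalamus its values lay between -8.52 and -6.72, and 1 of 16 blocks was well above background. Again no eye overlapped with any block. The difference was 11.68 (SE 0.51, limma adjusted p = 5.6e-19) in WT mice, which is at least 1493-fold since no WT block was well above background, and 12.11 (SE 0.51, limma adjusted p = 2.3e-19) in Per3-/- mice.

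Retn, the gene of resistin, was read by the overlapping probes printed above. On A_52_P55972 it ranged in the eye from -2.90 through -1.96 to -0.64 in WT and from -2.70 through -1.30 to -0.31 in Per3-/- mice. In the hypothalamus the same probe ranged from -7.09 through -6.51 to -4.76 in WT and from -7.28 through -6.63 to -6.25 in Per3-/- mice, and 6 of 16 blocks were well above background. The eye values did not overlap with those of the blocks. The difference was 4.48 (SE 0.37) in WT and 5.36 (SE 0.37) in Per3-/- mice on this probe and 4.66 (SE 0.33) and 5.31 (SE 0.33) on A_51_P233597, 22.3-fold to 41.0-fold, with limma adjusted p of at most 2.2e-12. The highest block, that of WT mouse 2 at -4.76, was the lowest of its group at -7.67 on the overlapping probe, so its higher reading was not shared by both.

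Retnla was bright in the eye on both of its probes and low in the hypothalamus. On A_51_P257951 it ranged in the eye from 0.47 through 1.19 to 1.88 in WT and from 0.92 through 1.31 to 2.05 in Per3-/- mice, and in the hypothalamus from -7.24 through -5.24 to -5.08 and from -5.91 through -5.59 to -4.66. Unlike Adipoq and Cfd it was well above background in 15 of 16 blocks on this probe. The tissues did not overlap. Macrophage markers, as a list, had summed signals of 4.15 to 5.86 times the 75th percentile in the eyes and 4.09 to 6.51 times in the blocks, with 5 of 8 genes higher and 3 lower in the eye, and the 4 ocular surface markers were all higher in the eye. The part of either in the Retnla level was not tested. The differences on both probes lay between 6.70 and 7.17, which are 104-fold to 144-fold, with limma adjusted p of at most 1.9e-17.

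Lep, the gene of leptin, lay near background in the hypothalamus and only a little above it in the eye. It ranged in the eye from -6.60 through -5.32 to -3.78 in WT and from -6.16 through -4.84 to -3.80 in Per3-/- mice, and 13 of 14 eyes were well above background. In the hypothalamus it ranged from -7.10 through -6.56 to -6.15 in WT and from -7.02 through -6.57 to -6.19 in Per3-/- mice, and 5 of 16 blocks were well above background. The WT tissues overlapped in range and the Per3-/- tissues did not. The eye was higher by 1.44 (SE 0.33, limma adjusted p = 0.0002) in WT mice, in 6 of 7 pairs of eye and block of the same number, and by 1.65 (SE 0.33, limma adjusted p = 3.7e-05) in Per3-/- mice, in 7 of 7. With normexp background correction the WT difference was 0.51 and was no longer called (limma adjusted p = 0.0612).

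Fam132a, the gene of adipolin, was the only ligand gene whose probe was well above background in all 16 blocks and all 14 eyes. It ranged in the eye from 2.68 through 2.84 to 3.3 in WT and from 2.14 through 2.39 to 2.49 in Per3-/- mice. In the hypothalamus it ranged from 1.68 through 2.0 to 2.37 in WT and from 1.12 through 1.38 to 1.89 in Per3-/- mice. Within each genotype every eye lay above every block. The difference was 0.92 (SE 0.11, limma adjusted p = 1.3e-08) in WT and 0.93 (SE 0.11, limma adjusted p = 1e-08) in Per3-/- mice.

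**Figure D1:**
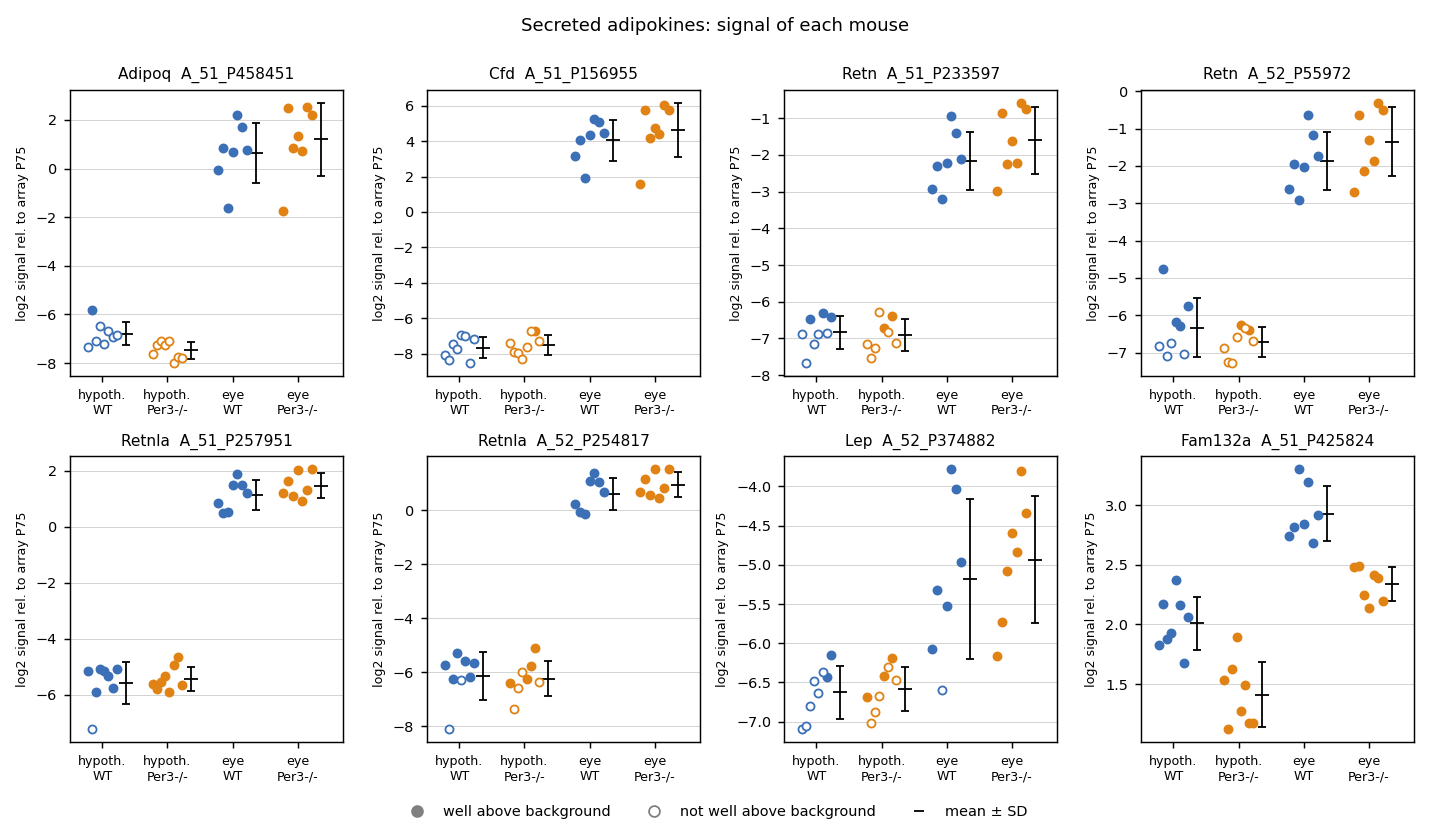
Level of each ligand probe (log2 signal relative to the array's 75th percentile, vertical axis) in every mouse, by tissue and genotype, with filled points well above background, open points not, and bars for the mean ± SD of 8 hypothalamic blocks or 7 eyes. Adipoq and Cfd are mostly open and below -5 in the hypothalamus and filled in all 14 eyes, and Fam132a is filled throughout.

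The receptor genes were read by 8 probes. Adipor1, which encodes the receptor that links adiponectin to AMPK, was higher in the eye on all 3 of its probes. On A_51_P485240 it ranged in the eye from 3.17 through 3.37 to 3.45 in WT and from 3.23 through 3.41 to 3.69 in Per3-/- mice, and in the hypothalamus from 0.95 through 1.11 to 1.17 and from 1.0 through 1.1 to 1.31. No eye overlapped with a block on any of the 3 probes. The WT differences were 2.25 (SE 0.06), 2.90 (SE 0.06) and 3.82 (SE 0.09) on A_51_P485240, A_52_P522097 and A_52_P645357, or 4.77-fold, 7.45-fold and 14.2-fold, with limma adjusted p of at most 1.3e-23, and the Per3-/- differences were 2.29, 2.98 and 3.81. The 3 probes thus differed in the size of the tissue difference though not in its direction.

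Adipor2, the second adiponectin receptor gene, was lower in the eye. On A_52_P185044 it ranged in the eye from 4.25 through 4.47 to 4.85 in WT and from 4.43 through 4.48 to 4.69 in Per3-/- mice, and in the hypothalamus from 4.90 through 5.01 to 5.32 and from 4.74 through 5.03 to 5.31. Every eye was lower than every block of its genotype. The difference was -0.55 (SE 0.08, limma adjusted p = 9.1e-07) in WT and -0.49 (SE 0.08, limma adjusted p = 4.9e-06) in Per3-/- mice, and on A_52_P516656, which crosses an intron, it was -0.75 (SE 0.09) and -0.71 (SE 0.09). The cDNA clone probe A_51_P257151 gave -0.03 (SE 0.32) in WT and 0.69 (SE 0.32, limma adjusted p = 0.048) in Per3-/- mice, where all but 1 eye and all blocks were at background. That last difference was 0.10 (limma adjusted p = 0.81) with quantile normalization.

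Lepr gave opposite tissue differences on its 2 probes. On A_51_P396045, the probe listed for 2 transcripts, it ranged in the hypothalamus from -5.66 through -5.45 to -4.92 in WT and from -5.55 through -5.41 to -4.91 in Per3-/- mice, and all 16 blocks were well above background. In the eye it ranged from -7.62 through -7.05 to -6.51 in WT and from -7.06 through -6.92 to -6.23 in Per3-/- mice, and 2 of 14 eyes were well above background. Every block was therefore above every eye, by 1.67 on the log2 scale in WT (SE 0.15, limma adjusted p = 3.2e-11, at least 2.06-fold) and by 1.45 in Per3-/- mice (SE 0.15, limma adjusted p = 6.1e-10). With normexp background correction the eye minus hypothalamus difference of this dim probe was -0.34 in WT (limma adjusted p = 0.262) and 0.17 in Per3-/- mice (limma adjusted p = 0.523), so the call was lost under that setting, which also took spot medians in the eye and spot means in the hypothalamus.

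On A_52_P247900, the variant 3 probe, Lepr ranged in the eye from -4.18 through -3.99 to -3.82 in WT and from -4.37 through -4.02 to -3.52 in Per3-/- mice, well above background in all 14 eyes. In the hypothalamus it ranged from -7.34 through -6.53 to -5.56 in WT and from -6.55 through -6.02 to -5.44 in Per3-/- mice, and 8 of 16 blocks were well above background. Here every eye was higher than every block. The difference was 2.48 (SE 0.20, limma adjusted p = 9.4e-13) in WT and 2.06 (SE 0.20, limma adjusted p = 5.8e-11) in Per3-/- mice.

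**Figure D2:**
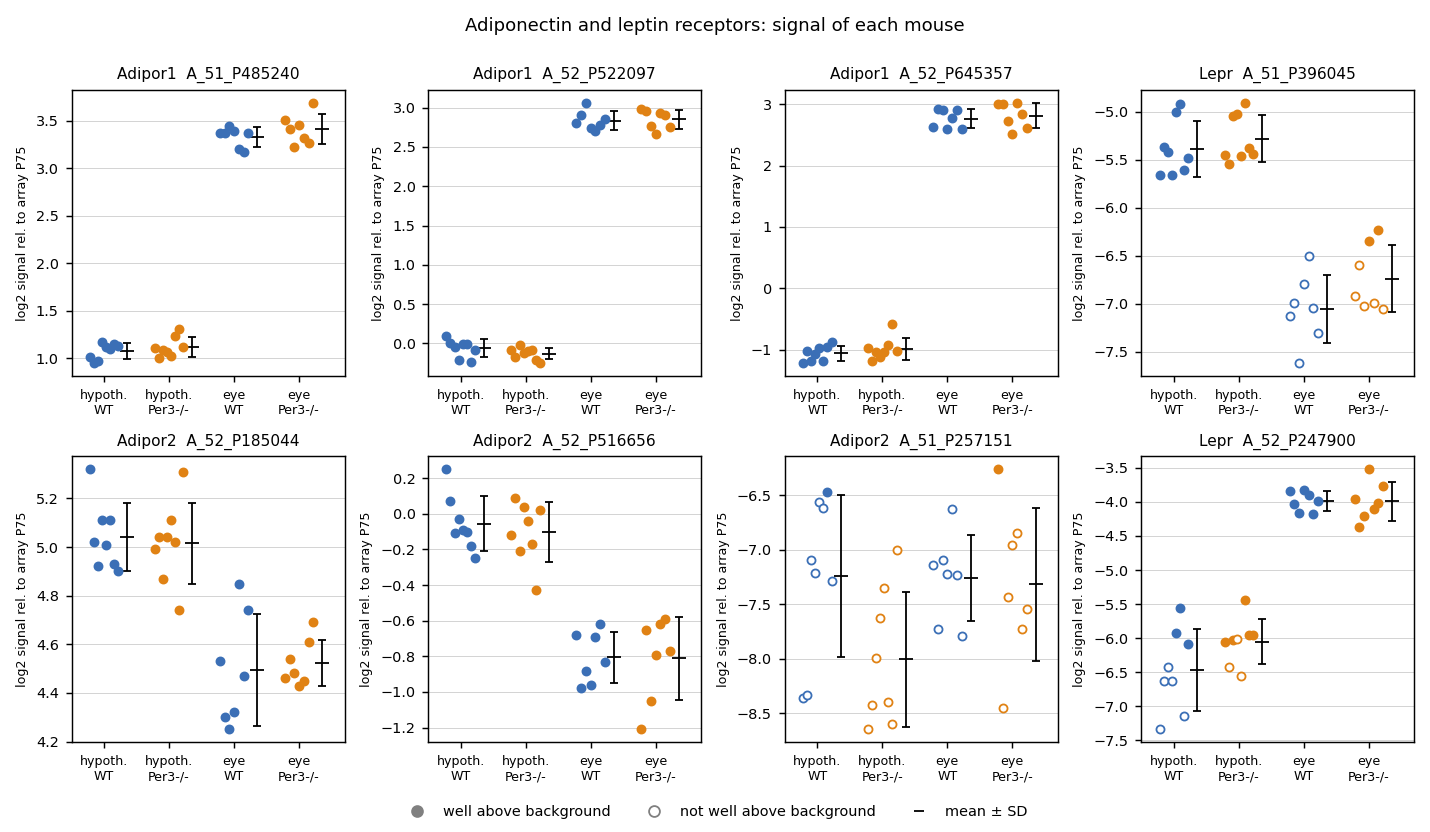
Level of each receptor probe (log2 signal relative to the array's 75th percentile, vertical axis) in every mouse, by tissue and genotype, with filled points well above background, open points not, and bars for the mean ± SD. All 3 Adipor1 probes are higher in the eye, the detected Adipor2 probes are lower, and the Lepr probes go in opposite directions.

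In all, 12 of the 16 probes were higher in the eye of WT mice, 3 were lower and 1 was not called, where 40.8% and 34.5% of all probes were called higher and lower. In Per3-/- mice 13 were higher and 3 lower, where 41.9% and 34.5% of all probes were. The median of all probes was itself shifted by 0.11 in WT and 0.18 in Per3-/- mice under this scaling, and by -0.07 and -0.06 with quantile normalization, which took the share of calls that were higher in the eye from 54.2% to 46.3% and from 54.9% to 46.7%. With normexp the Per3-/- median was shifted by 0.56 and the share was 68.3%. The differences of Adipor2, 0.49 to 0.75 in size, are of the order of that last shift, and they kept their direction and their call under each of these scalings.

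Between the genotypes no probe of these genes was called in either tissue by limma over all 41174 probes, where 0.0413% of all probes were called in the hypothalamus and 0.0194% in the eye. At an unadjusted p under 0.05 there were 3 of 16 in the hypothalamus and 1 of 16 in the eye, by limma, by the methods' t-test and by the exact permutation test alike, against 2.81% and 1.8% of all probes by limma. The hypothalamic ones were Fam132a, Adipoq and the cDNA clone probe of Adipor2, and the one in the eye was Fam132a. Of those, Adipoq and the Adipor2 clone probe were well above background in 1 WT block each and in no Per3-/- block, so their differences of -0.69 (SE 0.21) and -0.77 (SE 0.34) compare background signals.

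Fam132a was lower in Per3-/- mice by about the same amount in both tissues. In the eye each of the 7 Per3-/- mice lay below all 7 WT mice, with means of 2.34 ± 0.14 (SD, n = 7) and 2.93 ± 0.23 (SD, n = 7). The genotypes did not overlap for 0.0753% of all probes in the eye and for 0.0437% in the hypothalamus. The difference was -0.59 (95% interval -0.81 to -0.37), with an exact permutation p = 0.00058, the smallest that 7 against 7 can give, and a limma adjusted p = 0.19. In the hypothalamus 7 of 8 Per3-/- mice lay below every WT mouse, with means of 1.41 ± 0.27 (SD, n = 8) and 2.01 ± 0.22 (SD, n = 8). The difference was -0.60 (95% interval -0.87 to -0.34), with an exact permutation p = 0.00078 and a limma adjusted p = 0.24. Within the 4 slides it was -0.68, -0.14, -0.88 and -0.70 in the hypothalamus and -0.27, -0.69, -0.74 and -0.50 in the eye, lower on every slide. The difference between the eye and the hypothalamic effect was 0.01 (95% interval -0.31 to 0.34). No probe of these genes passed that test in limma, where 0.00486% of all probes did, and none had an unadjusted p under 0.05. The Fam132a probe lies 4.96 Mb from the Per3 probe on chromosome 4.

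The hypothalamic Fam132a difference passed the threshold without Per3-/- mouse 4, the highest of its group (-0.67, limma adjusted p = 0.04996), and with the choroid plexus marker level as a covariate, an alternative chosen after the data were seen (-0.65, limma adjusted p = 0.0005635). The size of the difference moved little, from -0.67 to -0.55 when 1 mouse was left out and from -0.65 to -0.59 under the other settings, while the adjusted p reached 0.953 with the replicate number as a block. In the eye the difference lay between -0.64 and -0.53 under every setting, with adjusted p from 0.1011 to 0.999.

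**Figure D3:**
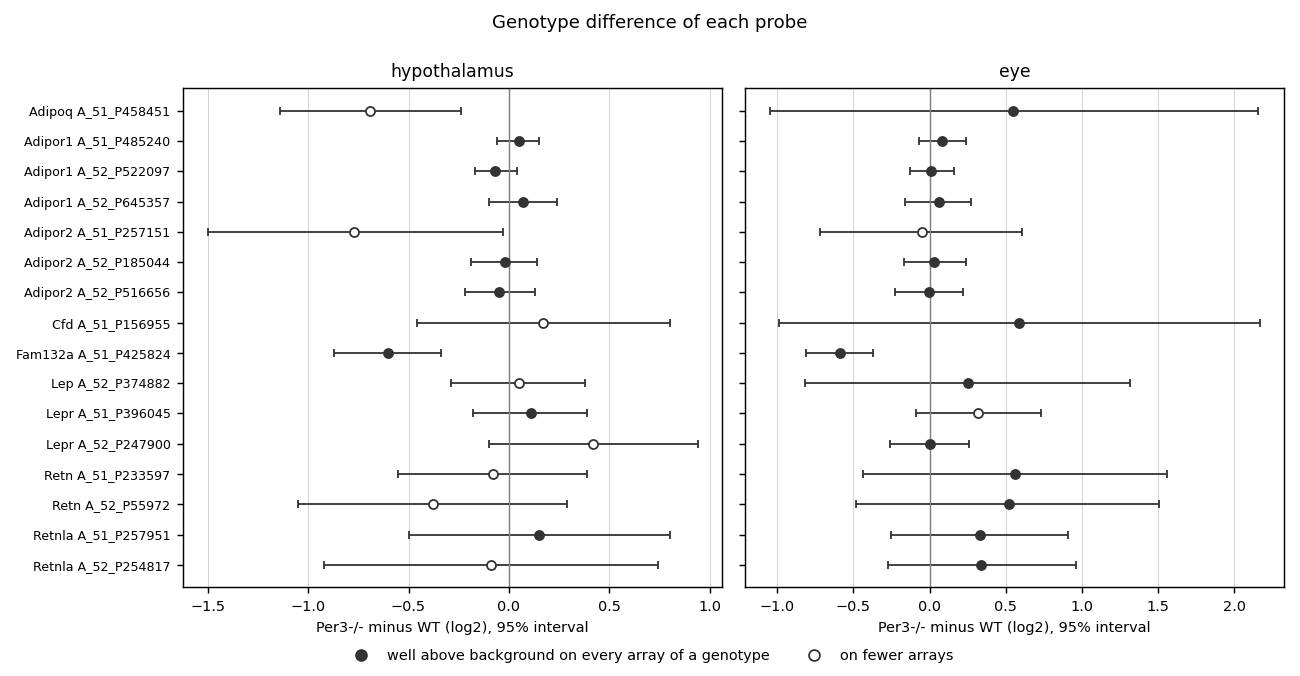
Per3-/- minus WT difference of each of the 16 probes (log2, horizontal axis) in the hypothalamus and the eye, with bars for the 95% interval from each probe's own residual spread. Fam132a lies at -0.60 and -0.59 with intervals clear of 0, the Adipor1 probes and the detected Adipor2 probes lie within 0.1 of 0, and the ligands Adipoq, Cfd, Retn and Lep have wide intervals in the eye.

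The adiponectin receptors were measured precisely, so their intervals are narrow. The Per3-/- minus WT difference of the 3 Adipor1 probes lay between -0.07 and 0.07 in the hypothalamus and between 0.01 and 0.08 in the eye, with no 95% interval reaching past -0.17 or 0.27. For the 2 detected Adipor2 probes it lay between -0.05 and 0.03, with intervals from -0.23 to 0.24. For Lepr, A_51_P396045 gave 0.11 in the hypothalamus (95% interval -0.18 to 0.39), where all blocks were measured, and A_52_P247900 gave -0.00027 in the eye (95% interval -0.26 to 0.26). None of these passed the test.

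The eye intervals of the fat cell ligands were wide. Adipoq was 0.55 higher in Per3-/- eyes (SE 0.74, 95% interval -1.05 to 2.16), Cfd 0.59 higher (SE 0.73, 95% interval -0.99 to 2.17) and Retn 0.52 to 0.56 higher (SE 0.46 for both probes). Lep gave 0.25 (SE 0.49) and the Retnla probes 0.33 (SE 0.26) and 0.34 (SE 0.28). All of these had a limma adjusted p of 1.0. Single mice moved some by more than 1.5 times. The Adipoq difference was 0.18 without WT mouse 4 and 1.04 without Per3-/- mouse 2, and the Cfd difference 0.23 and 1.1. The Lep difference was 0.01 without WT mouse 4 and 0.48 without WT mouse 6.

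Those mice were also the extremes of fat cell markers in the eye. The mean log2 level of 25 adipocyte marker probes, from genes such as Fabp4, Plin1 and Cidec, ran in WT eyes from -0.45 in mouse 4 to 1.13 in mouse 6 and in Per3-/- eyes from -0.27 in mouse 2 to 1.32 in mouse 3. Adipoq, Cfd, Retn and Lep were all lowest in WT mouse 4 and Per3-/- mouse 2. They were highest in WT mouse 6 and in Per3-/- mouse 7, whose marker level of 1.28 was next to the highest. Over all 15 adipocyte marker genes measured, each well above background on every array, the summed signal was 42.0 to 132 times the 75th percentile in WT and 42.8 to 164 times in Per3-/- eyes, against 26.9 to 35.2 times in the blocks. In the WT eye 12 were called higher, Dgat2 was lower (-0.49) and 2 were not called. In WT blocks Dgat2 and Gpd1 had the highest means of the list, 3.77 and 3.41. Fabp4, Plin1 and Cidec lay there at -5.42, -4.99 and -5.09. In the eye the Per3-/- minus WT difference was above 0 for 15 of the 15 genes, with a median of 0.31 where that of all probes was 0.00022, and none was called. The largest, Thrsp at 0.52, had an SE of 0.29, and Fabp4 at 0.51 had an SE of 0.56. All 15 were read in the same eyes and are not separate observations of the genotype. The 6 brown adipocyte markers summed to 31.3 to 85.2 times in the eyes and to 8.04 to 11.9 times in the blocks. In the WT eye 4 of them were called higher and 2 were not called. Cox7a1 and Cox8b had the highest means there, 4.41 and 4.08. Ucp1 was well above background in 3 eyes of each genotype and in no block, and Dio2 had means of 1.23 in WT eyes and 1.32 in WT blocks. The skeletal muscle markers summed to 199 to 479 and 220 to 545 times in the eyes, also lowest in WT mouse 4 and Per3-/- mouse 2, and to at most 0.961 times in the blocks. The part of these markers in the ligand levels was not tested beyond the relations that follow.

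Across the mice of 1 genotype, Adipoq in the eye followed the adipocyte level with r = 0.98 in WT (exact permutation p = 0.0006, adjusted p = 0.0016 over 11 relations, Spearman r = 0.96, n = 7) and r = 0.96 in Per3-/- mice (exact permutation p = 0.0004, adjusted p = 0.0015, Spearman r = 0.96, n = 7). Without the 2 mice farthest from the median marker level r was 0.93 and 0.98. Cfd gave r = 0.94 in both genotypes (exact permutation p = 0.0004 in WT and 0.0018 in Per3-/-, adjusted p = 0.0015 and 0.0024, n = 7), with Spearman r = 0.96 and 0.93 and r = 0.85 and 0.98 without those mice. The Retn probes gave r of 0.96 in WT and 0.99 and 0.98 in Per3-/- mice, with Spearman r of 0.96 and 1.0 in WT and 0.86 in Per3-/- mice, exact permutation adjusted p of 0.0018 to 0.0024 for r, and r of 0.93 to 0.98 without the farthest mice. With the mean of each slide subtracted, r was 0.96 for Adipoq in both genotypes, 0.90 and 0.93 for Cfd and 0.98 to 0.99 for Retn. In all, 9 of the 11 relations had an adjusted p under 0.05. They are not independent, since the Retn probes overlap and the relations of 1 genotype rest on the same 7 eyes. The share of all probes that followed the adipocyte level in these eyes is not given, so the count is not read as particular to these genes.

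The Lep values differed in this respect. In WT eyes it followed the adipocyte level with r = 0.97 (exact permutation p = 0.0002, adjusted p = 0.0015, Spearman r = 1.0, n = 7) and r = 0.98 without the 2 farthest mice. In Per3-/- eyes r was 0.58 (exact permutation p = 0.18, adjusted p = 0.2, Spearman r = 0.43, n = 7), 0.19 without the 2 farthest mice and -0.46 with the slide means subtracted. The difference between these correlations was not tested. The hypothalamic relation of Retn on A_52_P55972 gave r = -0.02 (exact permutation p = 0.96, n = 8), 0.90 with normexp and -0.82 with the slide means subtracted, so it has no settled direction.

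**Figure D4:**
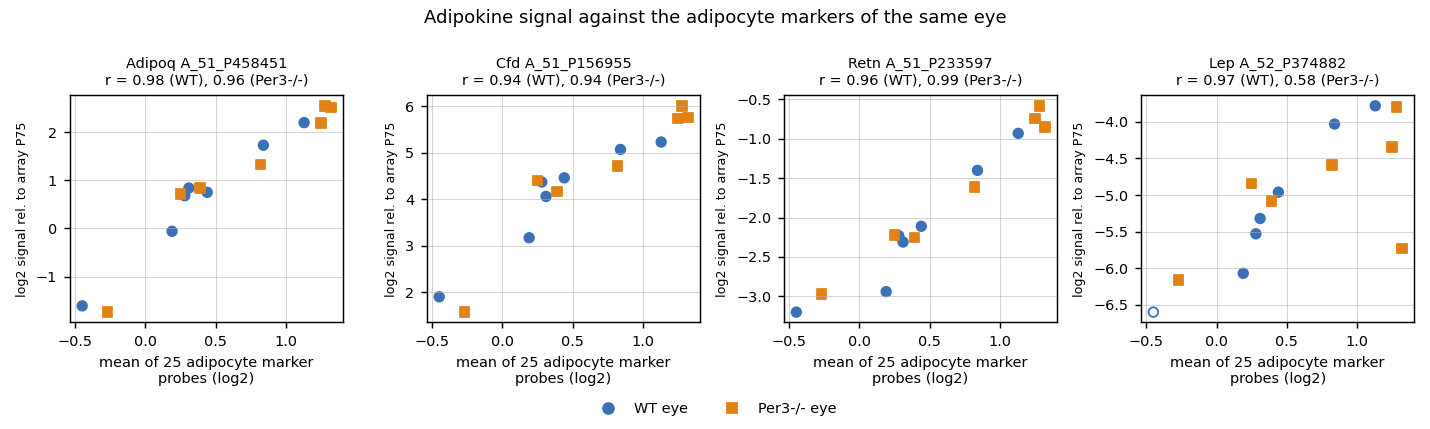
Level of Adipoq, Cfd, Retn (A_51_P233597) and Lep in each eye (log2 signal relative to the array's 75th percentile, vertical axes) against the mean log2 level of 25 adipocyte marker probes (horizontal axis), by genotype, with Pearson's r in each panel. WT mouse 4 and Per3-/- mouse 2 lie at the lower left, and Lep in Per3-/- eyes scatters most (r = 0.58).

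With the adipocyte level as a covariate, an alternative chosen after the data were seen, the Per3-/- minus WT differences in the eye were -0.23 for Adipoq, -0.16 for Cfd, -0.16 for Lep, 0.06 and 0.03 for Retn and 0.13 and 0.12 for Retnla. None was called with or without it. The probes most like Adipoq over the 14 eyes, after the genotype means were subtracted, were those of Plin1, Fabp4, Cidec, Cfd and an unnamed transcript (NAP025923-1), all with r of 0.99 among 27883 probes. Plin1 and Cidec encode proteins of the lipid droplet and Fabp4 a fatty acid carrier of fat cells. Those most like Cfd were the same unnamed transcript, Adipoq, Cidec, Fabp4 and Plin1 (r of 0.98 to 1.0). The eye level of the Lepr variant 3 probe was most like those of Gclm, Ranbp6, Ccnt2, Khdrbs1 and the transcript ENSMUST00000123238, with r of 0.90 to 0.92.

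In the hypothalamus the 5 blocks with the highest level of Lepr on A_51_P396045 were the 5 with the highest level of choroid plexus markers. The choroid plexus is the tissue of the ventricles that makes cerebrospinal fluid. Of the 7 choroid plexus marker genes measured, 6 were well above background on every block. The mean log2 level of the 7 lay between 0.13 and 0.60 in 5 blocks and between -3.51 and -0.64 in the other 11. Those 11 were spread out, with WT mouse 2 at -0.64, Per3-/- mouse 1 at -1.27 and WT mouse 4 at -2.32. The 5 were Per3-/- mice 6, 4 and 3 and WT mice 6 and 5. Their Lepr values, -5.05 to -4.91, were the 5 highest of the 16, above the -5.66 to -5.37 of the other blocks. Among those 11 the orders differed. Per3-/- mouse 7, lowest in marker level, ranked 7 of 16 in Lepr at -5.38, and WT mouse 4, at rank 8 in marker level, shared the lowest Lepr value of -5.66. On the variant 3 probe the ranges were -6.03 to -5.44 and -7.34 to -5.95 and overlapped. The line between the 5 and the 11 blocks does not lie at the widest gap in marker level. No correlation with that level is given, and the part of the choroid plexus in the Lepr level was not tested further. The genes most like this Lepr probe over the 16 blocks were Mdfic, Enpp2, Myof, Vpreb1 and Pqlc3, with r of 0.97 to 0.92 among 27149 probes. Enpp2 encodes autotaxin, which the choroid plexus secretes, but a choroid plexus origin of these genes was not tested.

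Fam132a was partly ordered like the choroid plexus level within each genotype. The 3 Per3-/- blocks of highest choroid plexus level, those of mice 6, 4 and 3, had Fam132a values of 1.49, 1.89 and 1.63, which were the fourth, first and second of the 8, and the 3 WT blocks of highest level, those of mice 6, 5 and 2, had 2.16, 2.37 and 2.17, the 3 highest of the 8. Lower down the order differed, since WT mouse 8 had the lowest choroid plexus level of the WT blocks and, at 2.06, the Fam132a value next below those 3. WT mouse 2, counted here among the highest WT blocks, was among the other 11 blocks in the Lepr comparison above. The choroid plexus level was higher in Per3-/- than in WT mice in 7 of 7 marker genes with a median of 0.33, and none of the 7 was called. The largest of these, Ttr, was 1.07 with an SE of 1.98. All 7 were read in the same blocks and are not separate observations of the genotype. The part of the choroid plexus in the Fam132a difference was not tested beyond the covariate fit above.

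**Figure D5:**
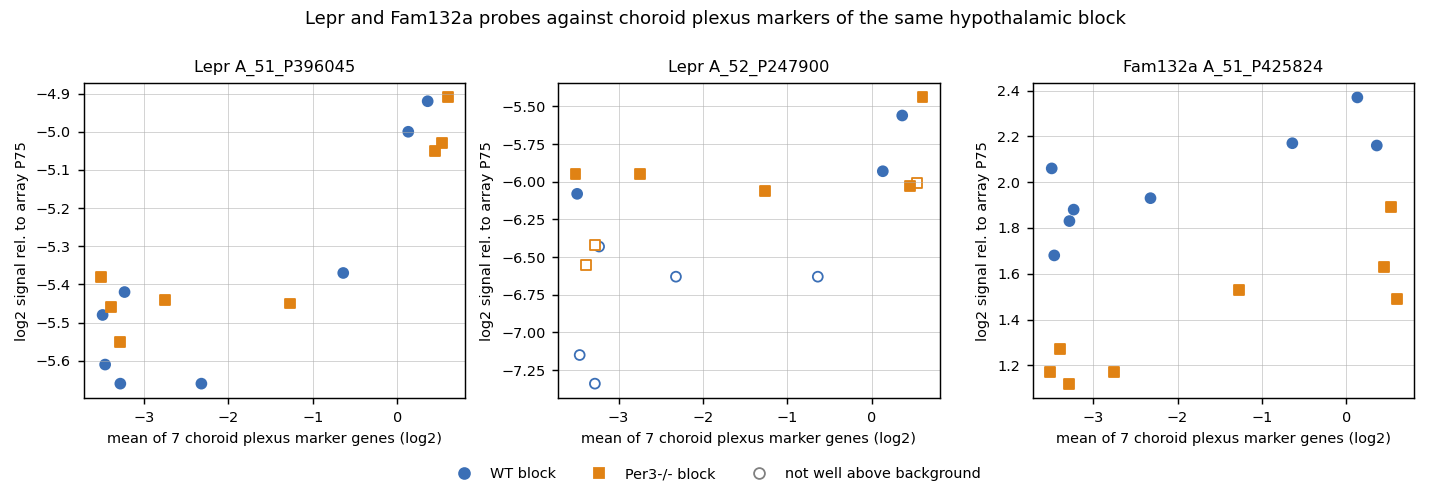
Level of the 2 Lepr probes and of Fam132a in each hypothalamic block (log2 signal relative to the array's 75th percentile, vertical axes) against the mean log2 level of 7 choroid plexus marker genes (horizontal axis), by genotype. The 5 blocks above 0.1 on the horizontal axis hold the 5 highest values of Lepr A_51_P396045. In Fam132a, 7 of the 8 Per3-/- blocks lie below every WT block.

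The genes downstream of these receptors and the relatives of the ligands differed between the tissues in both directions, and none was called between the genotypes in either tissue. The tissue counts that follow stand beside 40.8% of all probes called higher and 34.5% called lower in the WT eye, and 41.9% and 34.5% in the Per3-/- eye, and nothing particular to a list is read from them. Of the 15 adiponectin pathway genes, 8 were higher and 7 lower in the WT eye (median 0.23, all probes 0.11), and 7 and 7 in the Per3-/- eye. Among the subunits of AMPK, Prkab1 was 3.64 higher in the eye and Prkag2 1.93 and Prkaa2 1.73 lower by the log2 difference, and Cdh13, the gene of T-cadherin that binds adiponectin at the cell surface, fell by 2.93. Prkag3 was at least 3.0-fold higher in the WT eye (limma adjusted p = 7.4e-19), with no WT block well above background. Between the genotypes the largest of this list were 0.11 in size for Cdh13 in the hypothalamus and 0.20 for Sirt1 in the eye, both lower in Per3-/- mice.

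Of the 13 leptin pathway genes, 5 were higher and 8 lower in the eye of each genotype (WT median -0.27). The feedback inhibitor Socs3 was 2.10 higher and Stat5a 1.09 higher in the WT eye, and the adaptor Grb2 was lower with a difference of -1.78, Leprotl1 with -1.05 and Stat3 with -0.96. The arcuate neuron genes, which include the leptin targets Agrp, Npy, Pomc and Cartpt, were lower in the eye in 6 of 6 in both genotypes, from -3.69 for Ghrh to -1.04 for Cartpt in WT mice. Their genotype difference was largest for Pomc in the hypothalamus, at 0.49, a gene that pituitary cells also express. The block of Per3-/- mouse 1, with the high pituitary markers, also had the highest summed level of this list, 414 times the 75th percentile against a group median of 22.5.

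Of the 8 other C1q/TNF family genes, 7 were higher in the eye and C1qtnf4 was lower in both genotypes (WT median 1.94). C1qtnf7 and C1qtnf9 were each 3.0 higher in the WT eye, and C1qtnf4 fell by 2.91. Of the 9 alternative complement genes, which act with the protease adipsin, 6 were higher in the WT eye, 7 in the Per3-/- eye, and Masp1 was lower in both. Cfb, the substrate that adipsin cleaves, was 5.47 higher and C3 3.0 higher. Cfb gave genotype differences of 0.49 in the hypothalamus and 0.44 in the eye that were not called. Of the resistin family and its binding partners, the receptor Tlr4 was 3.19 higher and Cap1 1.13 lower in the WT eye by the log2 difference, and Retnlb and Retnlg were not called. Of 12 other adipokine and receptor genes, 4 were higher and 4 lower in the WT eye and 6 and 3 in the Per3-/- eye, among the WT ones Aplnr at 3.40 higher and Lcn2 at least 5.99-fold higher (limma adjusted p = 1.1e-06), with no WT block well above background. Rbp4 gave the largest genotype difference of that list in the eye, 0.65, which was not called.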

How the data were processed

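RNA was labelled with Cy3 and hybridised to 60-mer arrays, 1 array per mouse and tissue. The authors extracted each spot with Feature Extraction 10.7.1.1, and the processed intensities they deposited are linear values from which the background was subtracted. The authors also deposited log2 values, relative to the array's 75th percentile and centred per probe, which were used as an alternative. Here each processed intensity was divided by its array's 75th percentile (1440 to 2253 in the hypothalamus, 1192 to 1736 in the eye) and the ratio was expressed in log2. Flagged spots (up to 91 per array, 0 for the probes reported) were dropped. Replicate spots were averaged. Signal over background and the number of arrays limit the precision.

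WT and Per3-/- arrays of a tissue were compared unpaired in limma 3.58.1 (R 4.3.3). Tissues, and the difference of genotype effects, were fitted on the 30 arrays together, the mouse, taken from genotype and replicate number, being a random block (correlation 0.0583). The Benjamini-Hochberg adjustment covered all 41174 probes, with a threshold of 0.05. SE and 95% intervals come from each probe's own residual spread in the fit, while the limma p-values use a spread moderated over all probes. The fits were tested on simulated data. Single probes were tested by two-sided exact permutation in scipy 1.17.1 (Python 3.11.15, pandas 2.3.3, numpy 2.4.6). A fold against a group with no array well above background was bounded by the lowest signal well above background on each array of that group. Every probe of the 9 genes was named. From each pathway list, the genes past the threshold or, with none, up to 4 of largest difference were eligible. The 5 most alike genes were taken by Pearson's r. The genes, lists and tests were chosen with earlier results of these data known. Both genotypes lie on each of 4 slides per tissue. Positions are those of the hypothalamic array files (mm9), and the eye probes were matched by probe name. Alternatives were quantile normalization, normexp at an offset of 50 (on spot medians for eye arrays), only probes well above background, the authors' log2 values, slide and replicate number as blocks, the methods' t-test, no mouse term, and leaving out each mouse.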

Additional observations from a re-analysis of the deposited data

Results flagged for a closer look

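Of 64 sets of values, 16 probes in each of 4 groups of mice, 5 held a mouse far from the others by Dixon's test, where chance gives about 3.2. The 5 are not independent, since the Retnla probes share 50 bases and Adipoq and Cfd were flagged in the same eye. In the Per3-/- eyes, mouse 2 was lowest in Adipoq at -1.74, with the nearest mouse at 0.72, and in Cfd at 1.57, with the nearest at 4.17. The same eye had the lowest adipocyte marker level of its group. In the hypothalamus of WT mice, mouse 2 was lowest in Retnla at -7.24 on A_51_P257951 and -8.11 on the overlapping A_52_P254817, with the nearest mice at -5.91 and -6.29, and neither spot was well above background. In the hypothalamus of Per3-/- mice, mouse 7 was highest in Adipor1 on A_52_P645357 at -0.59, with the nearest at -0.93.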

How the results depend on the processing

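No genotype call of these probes was made under any setting except for Fam132a in the hypothalamus, so the count there was 0 to 1 when 1 mouse was left out and 1 with the choroid plexus covariate, chosen after the data were seen. Genotype differences that changed sign were never called, and their cause was not tested. With normexp these were in the hypothalamus Cfd at -0.15, Lep at -0.17, Lepr at -0.11 and -0.13 and Retnla A_51_P257951 at -0.14. In the eye they were Adipor1 A_52_P522097 at -0.01, Adipor2 at 0.42 (A_51_P257151), -0.02 (A_52_P185044) and 0.07 (A_52_P516656) and Lepr A_52_P247900 at 0.28. With the replicate block the eye values were -0.01 for Adipor1 A_52_P522097, 0.08 for Adipor2 A_52_P516656 and 0.02 for Lepr A_52_P247900. The authors' log2 values gave 0.00028 for Adipor2 A_52_P516656 and 0.0037 for Lepr A_52_P247900 in the eye, and quantile normalization gave 0.03 for the latter. With the adipocyte covariate the eye gave -0.23 for Adipoq, 0.11 and -0.03 for Adipor2 A_51_P257151 and A_52_P185044, -0.16 for Cfd and -0.16 for Lep.

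Of the tissue differences, normexp gave 0.006 for Adipor2 A_51_P257151 in WT, and -0.34 in WT (not called) and 0.17 in Per3-/- mice for Lepr A_51_P396045. It also ended the WT call of Lep. The Per3-/- call of Adipor2 A_51_P257151 was lost with quantile normalization and without the mouse block (adjusted p = 0.0518). The difference of genotype effects of Fam132a was -0.04 with normexp. Leaving out 1 mouse gave in the eye -0.0092 to 0.05 for Adipor1 A_52_P522097, -0.23 to 0.13, -0.01 to 0.09 and -0.04 to 0.06 for Adipor2 A_51_P257151, A_52_P185044 and A_52_P516656, and -0.08 to 0.06 for Lepr A_52_P247900. In the hypothalamus it gave -0.07 to 0.02 for Adipor2 A_52_P185044, -0.02 to 0.11 for Lep, -0.20 to 0.0085 for Retn A_51_P233597, -0.08 to 0.23 for Retnla A_51_P257951 and -0.37 to 0.07 for Retnla A_52_P254817.

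Over all probes, 17 were called between genotypes in the hypothalamus and 8 in the eye, against 10 and 4 with normexp and 5 and 1 with the replicate block. Between a WT and a Per3-/- mouse with 1 number, the deviations from the group means correlated with r of -0.204 to 0.396 in the hypothalamus. In the eye r was 0.56, 0.32, 0.485, 0.00161, 0.679 and 0.627 for numbers 3 to 8, whose mice also shared a slide. The number was not taken to pair them, so the unpaired eye tests leave this likeness out. Only the replicate block took the number into the fit. Signals near background limit Adipoq, Cfd, Lep and Retn in the hypothalamus and Lepr A_51_P396045 in the eye.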
